A study of Homo sapiens with 8 samples.

Results

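Aminoacyl-tRNA synthetases join each amino acid to its tRNA, and the transcripts of 6 of them were followed here: AARS1, GARS1, MARS1, NARS1, SARS1 and TARS3. They were taken by their gene symbol in the platform annotation, each was represented by 1 row of the array, and all 6 passed the filter on dim genes, among 11109 genes tested in all. The study measured 4 human multiple myeloma lines with the t(4;14) translocation, KMS11, KMS18, KMS34 and OPM2, each with 1 control array and 1 array after lentiviral shRNA knockdown of MMSET I (labelled ShMI), giving 4 arrays of each kind. MMSET I is a short protein form made from NSD2, a histone methyltransferase gene. Cells were infected in 8 µg/mL polybrene and harvested 48 h after the medium was changed, while the series text gives 72 h of treatment. The sources used here do not say what the control cells received, nor which shRNA was used. Each line is a single established culture, and the lines are the only replicates of the knockdown.

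Synthetases fall into cytosolic enzymes, which serve the translation of nuclear genes, and mitochondrial enzymes, most of which are encoded by separate genes. When an amino acid runs short, uncharged tRNA activates the kinase GCN2 (gene EIF2AK4), eIF2 alpha is phosphorylated, and translation of the transcription factor ATF4 increases. ATF4 is known to raise transcription of many cytosolic synthetase genes together with genes of amino acid synthesis and uptake, a programme called the amino acid response. Plasma cells and myeloma cells, which secrete large amounts of protein, draw heavily on this supply.

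The 6 genes were chosen by their knockdown differences on these arrays, those of KMS11 in particular. Their control and knockdown values are therefore given as a description, without a test, and support no further statement. Tests are given for genes that are not among the 6. For the members' levels between KMS18, KMS34 and OPM2, test values are printed as a description, with their limits.

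Arrays of 1 line correlated at 0.991 to 0.993 across the tested genes and arrays of different lines at 0.880 to 0.915. NSD2 was lower in 4 of 4 lines, with a mean of -0.18 on the log2 scale (SE 0.064), and missed the threshold (limma, adjusted p = 0.472). Its row covers the whole gene and does not single out the short isoform. Of the plasma cell markers, IRF4 had an intensity of 2255 to 4673, XBP1 of 1266 to 2766 and SDC1 of 844 to 1112 on the 8 arrays, while CD27 stayed at 56.2 to 86.6 and POU2AF1 at 70.7 to 88.4, close to the array medians of 49.3 to 53.5. CD38 had 50.6 to 416, with 50.6 in the KMS11 control and 83.2 in the KMS11 knockdown array (interaction in limma, adjusted p = 0.283). Markers of T and NK cells (6 of 11 measured) summed to 466 to 607, those of myeloid cells (7 of 9) to 1033 to 1304, and those of stromal and endothelial cells (3 of 8) to 102 to 112. Of the myeloid sum CST3, which many cell types express, made up the largest share (587 to 870), while CD14, LYZ and S100A8 had 28.2 to 43.6. In KMS11 the sum was 522 in the control and 485 in the knockdown array for T and NK cells, 1085 and 1093 for myeloid cells, within which S100A9 had 129 and 92.3 and CST3 653 and 715, and 104 and 102 for stromal and endothelial cells.

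Promoter sequences are shown for the members whose start region holds the core of the element that ATF4 is known to bind. RefSeq windows (GRCh38.p14, 250 bases before to 50 after the start of transcription) were found for 5 of the 6, TARS3 being the one without an entry. The motif searched was TGATGNAA on both strands, a pattern that is not specific to ATF4. It matched in AARS1, GARS1, MARS1 and NARS1, and in neither window of SARS1. Over all 27305 genes with a window, 4.46% held a match, and over the 8530 tested genes with one, 2.64%. Of the measured amino acid response genes listed below, 17 had a window and 3 held a match (ATF3, ASNS and JDP2). SESN2, PSAT1, PHGDH and STC2, which were lower in KMS11, had a window and no match. The 30 bases around each match are given on the strand of the gene, 5′ to 3′, with the match in capitals, and those of the asparagine synthetase gene ASNS and of CARS1, IARS1 and TARS1, the other measured cytosolic synthetase genes with a match, are added for comparison.
AARS1: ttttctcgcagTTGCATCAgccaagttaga
GARS1: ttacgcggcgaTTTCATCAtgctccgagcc
MARS1: gccggttccggTTGCATCAgcgagggattc
NARS1: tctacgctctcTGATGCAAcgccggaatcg
CARS1: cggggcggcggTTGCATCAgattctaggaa
IARS1: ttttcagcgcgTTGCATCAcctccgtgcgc
TARS1: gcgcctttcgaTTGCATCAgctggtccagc
ASNS: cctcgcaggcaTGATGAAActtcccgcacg

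AARS1, MARS1, CARS1, IARS1 and TARS1 carry the same 8 bases, TTGCATCA, and NARS1 carries their reverse complement, TGATGCAA. GARS1 and ASNS share the other form, TTTCATCA and its reverse complement TGATGAAA. The match begins 187 bases before the start in AARS1 (chr16:70289675-70289704, minus strand), 33 before 1 of 2 listed starts in GARS1 (chr7:30594834-30594863, plus strand), 4 before in MARS1 (chr12:57488053-57488082, plus strand) and at base 15 after the start in NARS1 (chr18:57621804-57621833, minus strand). In the comparison genes it begins 2 bases before the start in CARS1 (chr11:3057407-3057436, minus strand), 13 before it in IARS1 (chr9:92293692-92293721, minus strand), at base 3 after it in TARS1 (chr5:33440956-33440985, plus strand) and 68 before it in ASNS (chr7:97872458-97872487, minus strand). A match is a description of these letters and no measurement of binding. The longer context of the AARS1 match is shown because it lies farthest from a start among the matches shown (chr16:70289604-70289723, minus strand, 120 bases).
AARS1 upstream: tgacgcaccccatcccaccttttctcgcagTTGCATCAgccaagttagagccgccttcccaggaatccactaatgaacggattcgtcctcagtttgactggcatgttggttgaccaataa

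In KMS11, 5 of the 6 genes were 1.38-fold to 1.47-fold lower on the knockdown array, and TARS3 was 19.8% higher. In the other lines these 5 genes differed between their arrays by a fold of less than 1.25 in either direction. Values are linear intensities, which depend on the probes of a gene, so levels are compared between arrays and not between genes.

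AARS1, which charges tRNA with alanine, had an intensity of 1864 in the KMS11 control and 1321 in the KMS11 knockdown array, 1.41-fold lower. It had 2065 and 1925 in KMS18, 1883 and 1835 in KMS34, and 2964 and 3211 in OPM2. KMS11 with the knockdown was thus the lowest of the 8 arrays, and both OPM2 arrays were the highest. The mean was 2194 ± 522 (SD, n = 4) in control and 2073 ± 804 in knockdown arrays, so the groups overlapped, and the mean log2 difference was -0.13 ± 0.26 (SD, n = 4).

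GARS1 encodes the glycine enzyme, which serves both the cytosol and the mitochondria. Its intensity was 1669 in the KMS11 control and 1141 with the knockdown, 1.46-fold lower. KMS18 had 2043 and 2105, KMS34 2034 and 2024, and OPM2 1933 and 1844. The 6 arrays of the other lines lay close together, the KMS11 control lay below them, and the KMS11 knockdown array lowest. Over lines the log2 difference was -0.15 ± 0.27, and -0.01 ± 0.06 (SD, n = 3) without KMS11.

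MARS1 encodes the methionine enzyme, which also charges the initiator tRNA and sits in the multi-synthetase complex. Its intensity was 1235 in the KMS11 control and 839 with the knockdown, 1.47-fold lower and the largest of the 6 ratios in that line. KMS18 had 1174 and 1205, KMS34 1546 and 1564, and OPM2 997 and 1133. The difference was above 0 in the 3 other lines, 0.04 in KMS18, 0.02 in KMS34 and 0.18 in OPM2. Its mean over 4 lines, -0.08 ± 0.33, turned to 0.08 ± 0.09 (SD, n = 3) without KMS11.

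NARS1, whose enzyme charges tRNA with asparagine, was lower with the knockdown in 4 of 4 lines. Its intensity was 2285 in the control and 1614 in the knockdown array of KMS11, 2429 and 2214 in KMS18, 2794 and 2438 in KMS34, and 2591 and 2091 in OPM2. The log2 differences were -0.50, -0.13, -0.20 and -0.31 in that order, with a mean of -0.29 ± 0.16 (SD, n = 4) and of -0.21 ± 0.09 (SD, n = 3) without KMS11. The groups overlapped across lines, since the KMS34 knockdown array (2438) lay above the KMS11 control (2285). Of all tested genes, 8.76% were lower in 4 of 4 lines.

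SARS1 encodes the serine enzyme, which also loads serine onto the selenocysteine tRNA. Its intensity was 310 in the KMS11 control and 226 with the knockdown, 1.38-fold lower. KMS18 had 371 and 410, KMS34 598 and 579, and OPM2 254 and 259. Lines differed more than conditions: both KMS34 arrays lay above all others, and only the KMS11 knockdown array lay below the OPM2 arrays. The mean difference of -0.08 ± 0.26 turned to 0.04 ± 0.10 (SD, n = 3) without KMS11.

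TARS3 is a paralog of the threonine enzyme gene TARS1 and went the other way in KMS11. Its intensity was 109 in the KMS11 control and 130 with the knockdown, 85.9 and 134 in KMS18, 115 and 108 in KMS34, and 119 and 157 in OPM2. It was higher with the knockdown in 3 lines, by 1.20-fold in KMS11, 1.56-fold in KMS18 and 1.31-fold in OPM2, and 1.06-fold lower in KMS34. The mean log2 difference was 0.30 ± 0.31 (SD, n = 4). These intensities lie closer to the array medians than those of the other members. The paralog TARS1 had 1419 in the KMS11 control and 1102 with the knockdown, 1757 and 1808 in KMS18, 1852 and 1840 in KMS34, and 1844 and 1865 in OPM2. TARS1 was thus lower in KMS11, where TARS3 was higher.

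**Figure D1:**
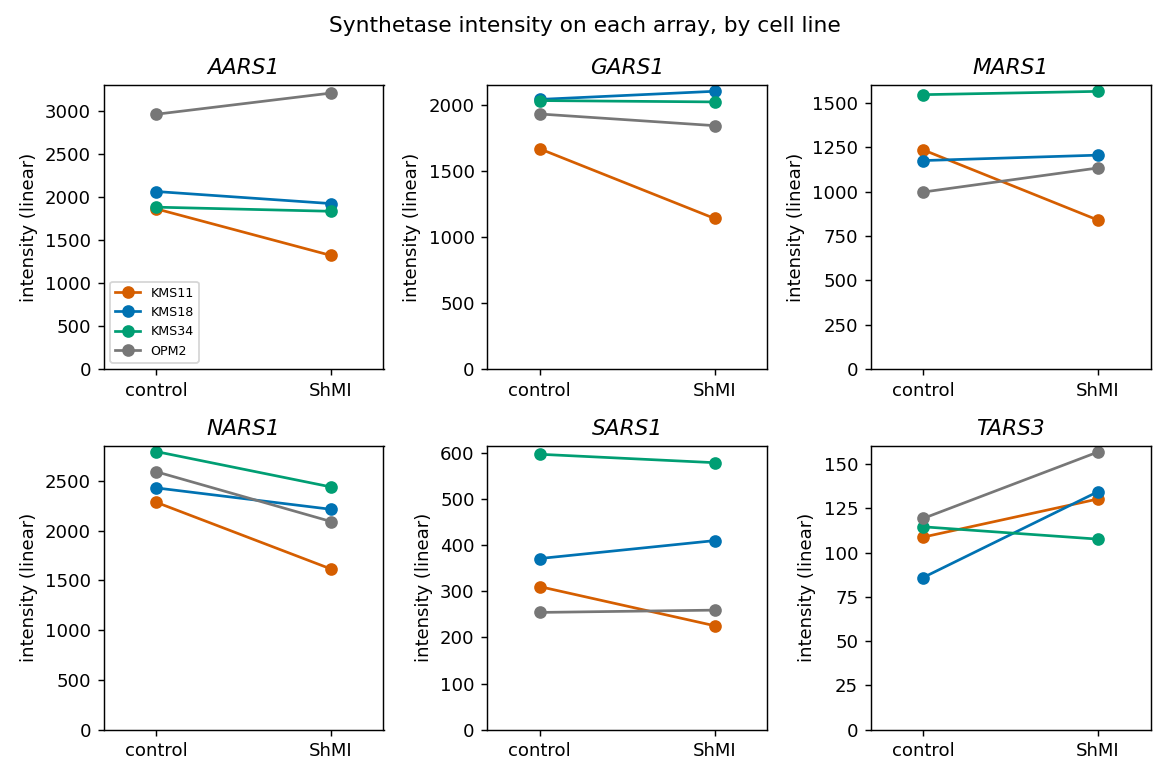
Linear intensity (vertical axis, from 0, scaled per gene) of the 6 synthetase genes on the control and the knockdown (ShMI) array of each line; a point is 1 array and a line joins the arrays of 1 cell line. In 5 panels the KMS11 knockdown point is the lower of its pair (AARS1 1864 and 1321), NARS1 is lower in 4 lines, and TARS3 is higher with the knockdown in KMS11, KMS18 and OPM2.

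In KMS11 the knockdown differences of AARS1, GARS1, MARS1, NARS1 and SARS1 lay between -0.56 and -0.46 on the log2 scale, with a median of -0.50. Their medians were 0.04 in KMS18, -0.04 in KMS34 and 0.03 in OPM2, against medians over all tested genes of -0.0021, 0.0030, -0.012 and 0.0024 in KMS11, KMS18, KMS34 and OPM2. At least 1.25-fold lower in KMS11 were 5 of 6 members, beside 3.98% of all tested genes. This threshold was set after the values were seen. In KMS18, KMS34 and OPM2 it was met by 0 members in the lower direction, beside 2.09%, 2.33% and 2.29% of genes, and in the higher direction by TARS3 in KMS18 and OPM2, beside 2.2% and 2.66% of genes, and by 0 members in KMS11 and KMS34, beside 3.47% and 2.19%. Because these differences guided the choice of genes, nothing is read from the counts.

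The other cytosolic synthetases were examined next, 12 of 15 having a named row. In KMS11, 10 of the 12 had a difference below 0, beside 50.5% of all tested genes, with a median of -0.19. At least 1.25-fold lower were 3, beside 3.98%: CARS1 for cysteine (-0.46), YARS1 for tyrosine (-0.44) and TARS1 for threonine (-0.36). CARS1, at -0.459, lay just beside SARS1, at -0.461, the member nearest to it. Next came WARS1 for tryptophan (-0.28), KARS1 for lysine (-0.23), IARS1 for isoleucine (-0.20) and EPRS1, which encodes the joint enzyme for glutamate and proline (-0.19). QARS1 for glutamine (0.09) and RARS1 for arginine (0.09) were above 0. Together with the members, 8 of 18 measured cytosolic synthetases were at least 1.25-fold lower in KMS11, beside 3.98% of all tested genes. This count holds 5 members chosen by their KMS11 values, so nothing is read from it. The medians of the 12 were 0.06 in KMS18, -0.02 in KMS34 and -0.02 in OPM2, and 0 of the 12 reached 1.25-fold in either direction.

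Whether KMS11 differed from the other lines was tested over all genes by the interaction of knockdown and line, with the lone KMS11 pair assumed to vary like the other pairs. The test called 0 of 11109 genes, or 0%, in limma (749 at an unadjusted p under 0.05, or 6.74%). Of the 12 other cytosolic synthetases 0 passed and 4 had an unadjusted p under 0.05, each lower in KMS11: CARS1, with an interaction of -0.43 and a standard error of 0.16 (limma, adjusted p = 0.598), WARS1 (-0.39, 0.598), TARS1 (-0.38, 0.614) and YARS1 (-0.39, 0.616). The test thus did not separate KMS11 from the other lines for any of them.

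**Figure D2:**
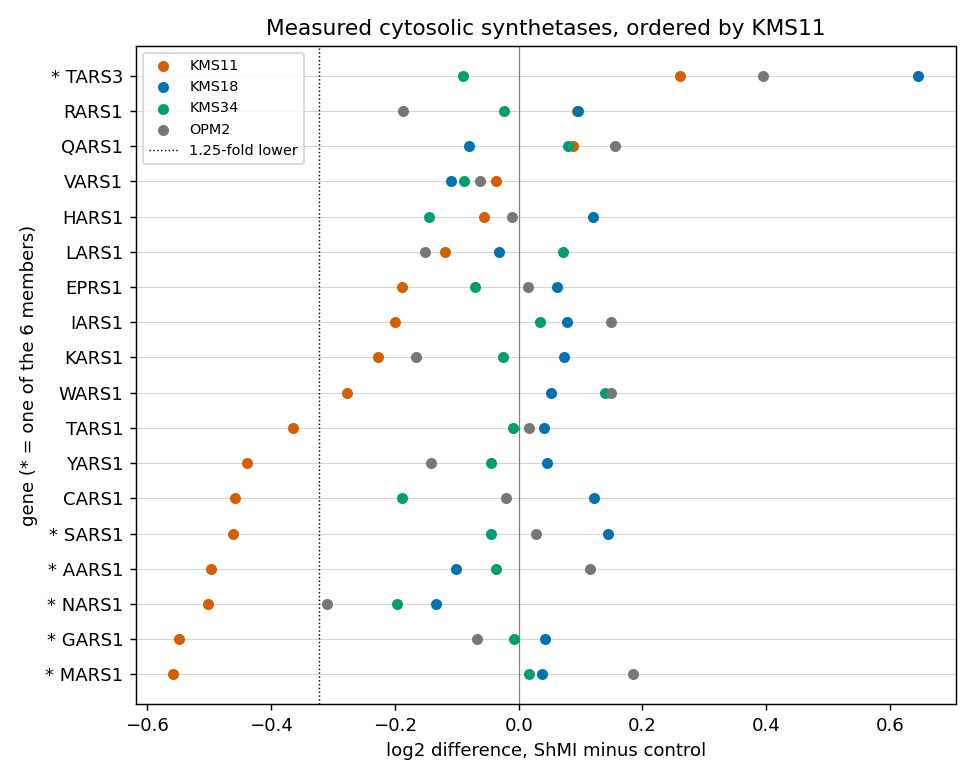
Log2 knockdown difference (horizontal axis, ShMI minus control) of the 18 measured cytosolic synthetase genes in each line, ordered by the KMS11 value; a point is 1 pair of arrays, an asterisk marks the 6 genes followed here, and the dotted line stands at 1.25-fold lower. The KMS11 points spread from -0.56 for MARS1 to 0.26 for TARS3, while most points of the other lines lie near 0.

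Across 4 lines, the knockdown fit called 13 of 11109 genes (0.117%), 11 lower (0.099%) and 2 higher (0.018%) in limma with line as a block, and 0 of the 12 other cytosolic synthetases, with 0 at an unadjusted p under 0.05. Their mean differences were below 0 in 9 of 12, beside 5732 of 11109 tested genes, with a median of -0.051, against -0.0033 over all tested genes. The lowest were YARS1 (-0.14), CARS1 (-0.14) and KARS1 (-0.09), and the highest QARS1 (0.06), WARS1 (0.02) and IARS1 (0.02). VARS1, for valine, had a difference below 0 in 4 of 4 lines, from -0.11 to -0.04, as had 8.76% of all tested genes. It was chosen for mention after its values were seen. The 17 mitochondrial synthetase genes listed had no named row and were not analysed here.

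Among the cytosolic genes with a promoter window, 7 had a match to the motif shown above and 7 had none. YARS1 (KMS11 difference -0.44), LARS1 (-0.12), VARS1 (-0.04) and TARS3 (0.26) had no window and are not in this split. The KMS11 difference of those with a match (AARS1, GARS1, MARS1, NARS1, CARS1, IARS1 and TARS1) ran from -0.56 to -0.20 with a median of -0.50, and 6 of 7 were at least 1.25-fold lower. Those without one (SARS1, EPRS1, HARS1, KARS1, QARS1, RARS1 and WARS1) ran from -0.46 to 0.09 with a median of -0.19, and 1 of 7, SARS1, was that much lower. AARS1, GARS1, MARS1 and NARS1 on the side with a match, and SARS1 on the other, were chosen for their KMS11 values. The medians and counts of the split are thus largely set by the choice, and nothing is read from them. Among the genes that are not members, CARS1 (-0.46), TARS1 (-0.36) and IARS1 (-0.20) had a match, and the 6 without one ran from -0.28 to 0.09. These ranges overlapped, since WARS1 (-0.28) and KARS1 (-0.23), without a match, lay below IARS1. With the members left out, 9 of 278 tested genes at least 1.25-fold lower in KMS11 that had a window held a match (3.24%), against 221 of 8525 tested genes with a window (2.59%). The share was 1.97% for such genes in KMS18, 2.79% in KMS34 and 1.7% in OPM2.

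Genes that assist the synthetases or share their regulation were taken from lists. Of the complex scaffold and trans-editing genes, 3 of 6 were measured. AIMP1, a scaffold of the multi-synthetase complex, had a KMS11 difference of -0.05, and the aminoacyl-tRNA deacylase genes DTD1 and DTD2 had -0.18 and 0.44. Of the kinases of eIF2 alpha and their partners, 5 of 15 were measured. EIF2AK4 had a KMS11 difference of -0.01 and its activator GCN1 one of -0.06, while EIF2AK2 (0.25) and EIF2AK3 (0.30), the kinases that respond to double-stranded RNA and to endoplasmic reticulum stress, were above 0. EIF2AK2 was above 0 in 4 of 4 lines, as were 8.29% of all tested genes, with a mean of 0.19 and a standard error of 0.067, and EIF2AK3 had a mean of 0.20 with a standard error of 0.074. Neither passed (limma, adjusted p = 0.487 and 0.519), though both had an unadjusted p under 0.05. EIF2AK1 and GCN1 had means of -0.09 and -0.10.

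The tRNA maturation genes (19 of 26 measured) had a median of 0.0043 in KMS11, 9 of 19 were below 0, and 1, the tRNA methyltransferase subunit gene TRMT61A, was at least 1.25-fold lower (-0.33), followed by the pseudouridine synthase gene PUS1 (-0.22) and the Elongator subunit gene ELP5 (-0.19). By mean difference ELP5 (-0.08), CTU2 (-0.07) and ELP4 (-0.05) were lowest and ELAC1 (0.14), OSGEP (0.11) and TPRKB (0.09) highest. The elongation factors (5 of 6 measured) had a KMS11 median of -0.021, with EEF1A1, which carries charged tRNA to the ribosome, at -0.06, EEF1A2 at -0.07, EEF1D at 0.01, EEF1G at 0.13 and EEF2 at -0.02. In these 2 lists, and in the scaffold and kinase lists, 0 genes were called for the knockdown or the KMS11 interaction. At an unadjusted p under 0.05 were 2 genes for the knockdown (EIF2AK2 and EIF2AK3), beside 8.41% of all tested genes. For the interaction there were 2 (DTD2 and TRMT61A), beside 6.74%.

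Amino acid response genes, too, were mostly lower in KMS11. This list was written with earlier results of these arrays known, so its direction is not independent evidence. Of 21 measured members (of 38), 20 had a KMS11 difference below 0, beside 50.5% of all tested genes, and 11 were at least 1.25-fold lower, beside 3.98%. The KMS11 median was -0.44, against 0.14 in KMS18, -0.01 in KMS34 and -0.02 in OPM2. Lowest in KMS11 were the stress sensor gene SESN2 (-0.95), and PSAT1 (-0.87) and PHGDH (-0.84) of serine synthesis. VLDLR, at 0.36, was the member above 0. ATF4 itself had an intensity of 1221 in the KMS11 control and 903 with the knockdown, a difference of -0.44, against -0.11 in KMS18, 0.05 in KMS34 and 0.11 in OPM2.

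Across 4 lines 0 of these 21 genes passed the knockdown test in limma and 5 had an unadjusted p under 0.05, beside 8.41% of all tested genes, among them CBS (mean -0.30), ASNS (-0.30) and VLDLR (0.21). The next lowest was PSAT1 (-0.22), and after VLDLR the highest were CTH (0.09) and GDF15 (0.07). For the KMS11 interaction 0 passed and 10 had an unadjusted p under 0.05, beside 6.74% of all tested genes. Each of the 10 was lower in KMS11, as were 391 of the 749 tested genes under that p. SESN2 (-1.07) and STC2 (-1.06) came closest, each with an adjusted p of 0.0844. Without OPM2, 104 genes were called for the interaction, 7 of them in this list: ASNS, PCK2, PHGDH, PSAT1, PSPH, SESN2 and STC2. Of the 12 other cytosolic synthetases 0 were among the 104. SESN2 and STC2 also passed without KMS34 and with dim genes under the 50th percentile left out. With trend and robust eBayes, SESN2, STC2, PSAT1 and PHGDH passed. Earlier results of these arrays had singled out KMS11 for such genes before the list was written. The interaction tests of its genes therefore repeat a known contrast and are no independent evidence, in the main fit or in these settings.

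Several of these genes act on the amino acids that the members charge. ASNS, which makes asparagine, had 370 in the KMS11 control and 210 with the knockdown, beside 2285 and 1614 for NARS1. ASNS differed by -0.12 in KMS18, -0.17 in KMS34 and -0.09 in OPM2, so that both were lower in 4 of 4 lines. For serine, PSPH had 458 and 271 in KMS11, beside 310 and 226 for SARS1. SHMT2, which turns serine into glycine, had 216 and 159, beside 1669 and 1141 for GARS1. In KMS18, KMS34 and OPM2, PSPH differed by 0.01, -0.01 and -0.09, and SHMT2 by 0.12, -0.07 and 0.22.

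**Figure D3:**
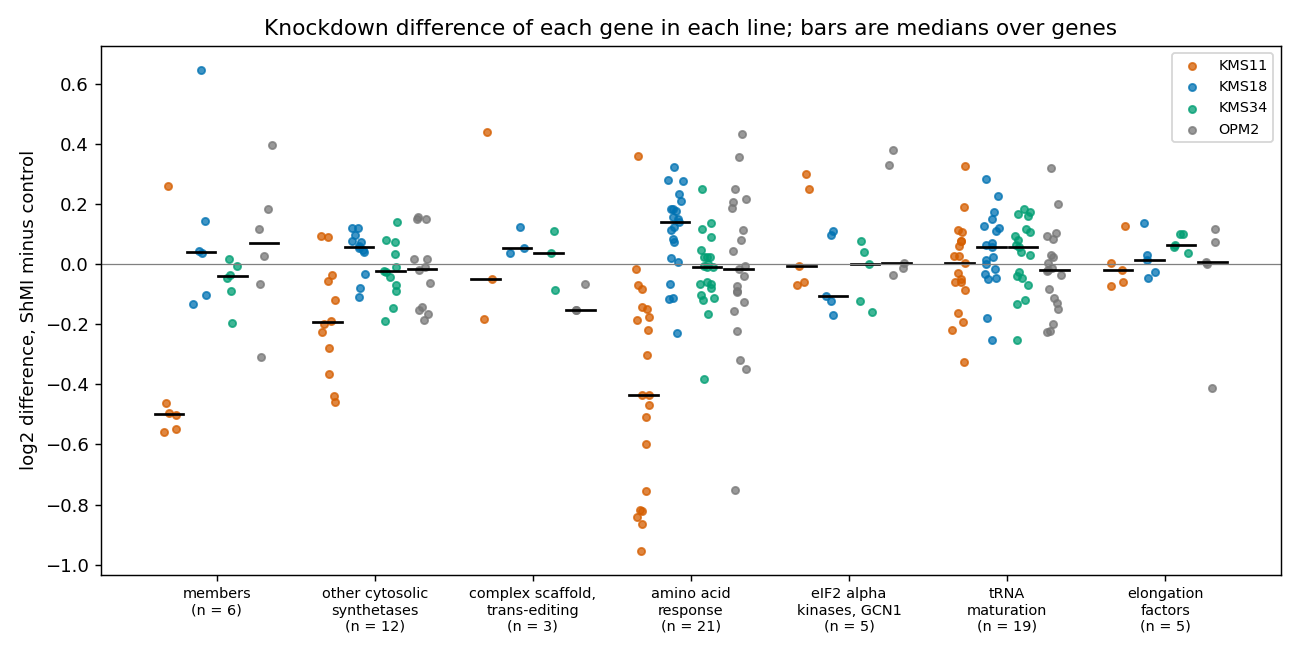
Log2 knockdown difference (vertical axis, ShMI minus control) of each measured gene of 7 groups, by line; a point is 1 gene in 1 line and a bar the median over the genes. KMS11 medians are -0.50 for the members, -0.19 for the other cytosolic synthetases and -0.44 for the amino acid response genes, and lie between -0.05 and 0.0043 for the remaining groups. The members were chosen by their KMS11 values and the response list was written with earlier results known, so nothing is read from the gaps between groups.

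Levels between lines were examined next, as the mean of a line's control and knockdown array. The KMS11 mean contains the knockdown array that the choice of genes used, so tests are given over KMS18, KMS34 and OPM2, and KMS11 is described by its control array. Pairs of lines were tested in the fit over 4 lines, so the KMS11 arrays enter their error. In either test the error rests on the spread of a gene's knockdown differences between lines. The tests of the members are thus not free of the values that guided the choice. The F test fitted without KMS11, over the 3 other lines, passed for SARS1, AARS1 and MARS1. These are 3 of the 6 members, beside 64.4% of all tested genes. Over 4 lines the F test passed for 5 of 6, beside 75.7%, a count that holds the chosen values and from which nothing is read.

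SARS1 had a mean intensity of 588 in KMS34, 390 in KMS18 and 257 in OPM2 (F test over 3 lines in limma, adjusted p = 4.3e-07). KMS34 exceeded KMS18 1.51-fold (adjusted p = 0.00211) and KMS18 exceeded OPM2 1.52-fold (0.00194), so each step passed. The KMS11 control array, at 310, lay between the control arrays of KMS18 (371) and OPM2 (254).

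AARS1 was highest in OPM2 (3085), 1.55-fold above KMS18 (1994; adjusted p = 0.00139), while KMS18 and KMS34 (1859) did not differ beyond their spread (0.531). Its F test over the 3 lines had an adjusted p of 2.7e-05. With KMS11 in and OPM2 out, the adjusted p was 0.0575. The KMS11 control array (1864) lay beside that of KMS34 (1883).

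MARS1 was highest in KMS34 (1555), 1.31-fold above KMS18 (1190; adjusted p = 0.0427), and KMS18 and OPM2 (1063) did not differ beyond their spread (0.429). Its F test over the 3 lines had an adjusted p of 0.00047, and with KMS11 in and KMS34 out one of 0.345. Its KMS11 control array, at 1235, lay above those of KMS18 (1174) and OPM2 (997).

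GARS1 and NARS1 did not pass over the 3 lines (adjusted p = 0.377 and 0.193). GARS1 had 2074 in KMS18, 2029 in KMS34 and 1888 in OPM2, and NARS1 had 2610 in KMS34, 2328 in OPM2 and 2319 in KMS18. On the control arrays KMS11 was the lowest line for both: the other lines stood 1.16-fold to 1.22-fold higher for GARS1 and 1.06-fold to 1.22-fold higher for NARS1, with 1 array a line and no test. TARS3 did not pass either (OPM2 137, KMS34 111, KMS18 107, adjusted p = 0.0727). Over the recomputed F tests its adjusted p ran from 0.0330, with KMS34 left out, to 0.636, with OPM2 left out. Both of these fits hold the KMS11 arrays that guided the choice, so nothing is read from them. Of the 3 pairs among KMS18, KMS34 and OPM2, SARS1 passed for 3, AARS1 and MARS1 for 2 each, and GARS1, NARS1 and TARS3 for 0. Of all tested genes, 47.5% passed between KMS18 and KMS34, 38.9% between KMS18 and OPM2, and 49.9% between KMS34 and OPM2.

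**Figure D4:**
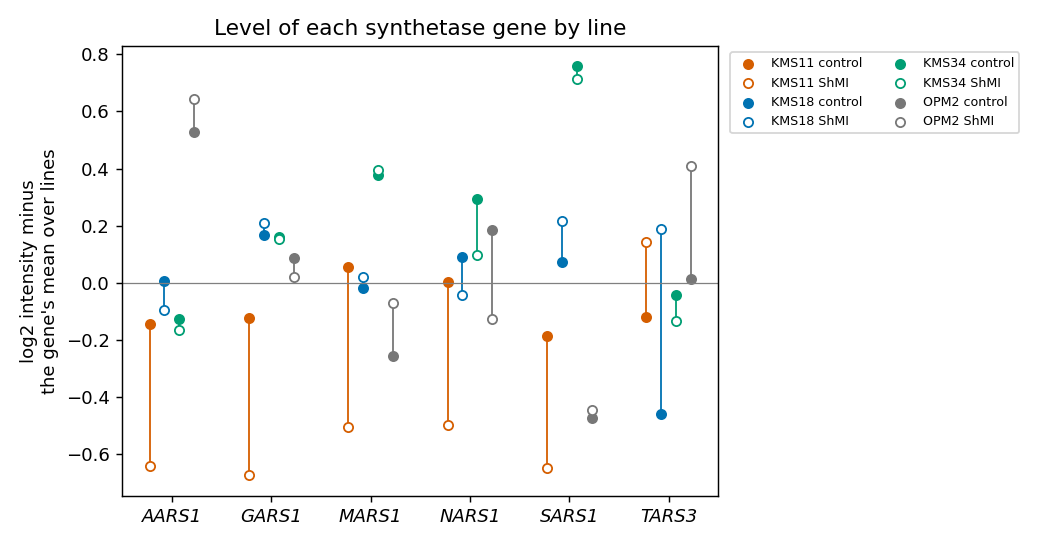
Log2 intensity of each synthetase gene minus the gene's mean over lines (vertical axis); filled points are control arrays, open points knockdown (ShMI) arrays, and a bar joins the pair of a line. SARS1 is highest in KMS34 and AARS1 in OPM2 on both arrays, while for GARS1 and NARS1 the KMS11 control array is the lowest control.

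The control level of SARS1 had an order of lines that amino acid response genes often shared, a pattern singled out after the values were seen. SARS1 had 598 in KMS34, 371 in KMS18, 310 in KMS11 and 254 in OPM2. The same order was found on the control arrays of 10 of the 21 measured amino acid response genes (ATF3, DDIT3, TRIB3, SESN2, STC2, ASNS, PSAT1, PHGDH, SHMT2 and CBS), beside 4.04% of all tested genes. ASNS had 951, 418, 370 and 277 in that order, and SESN2 1137, 600, 499 and 293. Of the 12 other cytosolic synthetases RARS1 had it, and of the 6 members none but SARS1. The listed genes share the same 4 arrays, so this is a description without a test.

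The genes outside the 6 whose knockdown differences over 4 lines were most like the members' median (KMS11 -0.50, KMS18 0.04, KMS34 -0.04, OPM2 0.07) were found by Euclidean distance on the log2 scale. In order they were CIMAP1B (distance 0.046), PMEL, MIR375, PDZD4, MEGF10, PVR, RNF207 and TLX3 (0.113). None of the 8 was in one of the lists, and 6 of them had a mean intensity of 50.5 to 131, the others being PVR (279.6) and MIR375 (319). Among the members themselves the distance to the median was 0.119 for SARS1, 0.140 for MARS1, 0.148 for AARS1, 0.152 for GARS1, 0.447 for NARS1 and 1.03 for TARS3. Each of the 6 was farther from it than the 8 genes. These 8 were picked as the smallest distances among all tested genes that are no members, so nothing is read from that order.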

How the data were processed

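RNA was hybridised to the Affymetrix Human Gene 2.0 ST array. The table deposited by the authors holds a linear intensity per transcript cluster and array, from GeneSpring per the series text; its background correction and normalization are not given in the sources used here. Upper quartiles of 108 to 109 show that the 8 arrays are on a common scale, so a shift of the whole transcriptome would not be seen. The small number of arrays sets the precision, and p-values measure only the spread between these samples.

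Of 44629 rows, 15835 had 1 gene symbol, covering 14812 genes (the brightest row for the 651 genes with several). Genes under the 25th percentile of mean log2 intensity (46.7) were left out, leaving 11109. Fits used limma 3.58.1 in R 4.3.3 on log2 of the deposited intensities, the line entering as a block, with Benjamini-Hochberg adjustment over all tested genes and a threshold of 0.05. Within a line there is 1 array per condition and no test. The labelled line pairs the arrays: deviations from the group means correlated at 0.925 to 0.932 within a line and at -0.135 at most between lines. Deviations from a group's own mean sum to 0, which pushes the values between lines below 0. Uncentred, arrays correlated at 0.991 to 0.993 within a line and at 0.880 to 0.915 between lines. The scripts were tested on simulated data. The F test of the members without KMS11 is one of the alternatives and was put first after the values were seen; pairs of lines come from the fit over 4 lines.

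The members and lists were chosen with earlier results of these data known. Named genes were the members, the 3 lowest and highest of each list by mean difference, the 3 lowest in KMS11, and the 8 nearest patterns.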

Additional observations from a re-analysis of the deposited data

How the results depend on the processing

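The knockdown fit called 13 genes and gave 4 with no filter on dim genes, 29 with trend and robust eBayes, 0 over all rows of the table, and 1 to 4 when a line was left out. Pairing mattered: without the cell line block 0 genes were called, and 3 with the line as a random block. The KMS11 interaction called 0 genes and gave 2 with dim genes under the 50th percentile left out, 7 with trend and robust eBayes, and 0 to 104 when 1 of the other lines was left out; without KMS11 it could not be fitted. Between lines, 8412 genes were called and 17201 over all rows. Of 126 recomputed knockdown differences of members (means and KMS11 values), 124 kept their sign. The exceptions were the means of MARS1 and SARS1 without KMS11. KMS11 values stayed within -0.60 and -0.44 for AARS1, GARS1, MARS1, NARS1 and SARS1, and 0.23 to 0.28 for TARS3. Each member has 1 row, so the filters, the mean of rows, the eBayes options and the use of all rows could not change its difference. Only quantile normalization and median centring could change a KMS11 value, and only these or a left-out line a mean. The kept signs and the ranges were thus mostly fixed in advance, and nothing is read from them. Of 66 recomputed F tests of members, 60 stayed on the same side of the threshold; of the other 6, the one outside the left-out lines was MARS1 over all rows (adjusted p = 0.0776). With 1 array per line and condition, differences of the size seen in KMS11 cannot be told from the spread between cultures.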
